A study of Mus musculus with 9 samples.

Results

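Receptors for glutamate and GABA were represented by 29 genes, 21 for glutamate receptor subunits and 8 for GABA-A receptor subunits, out of 78275 gene IDs in the count table. They were chosen by name as a gene family and not by how they moved, though with earlier results of these data known. The genes are the AMPA receptor subunits Gria1 to Gria4, the NMDA receptor subunits Grin1, Grin2a, Grin2b, Grin2d and Grin3a, the kainate receptor subunits Grik1 to Grik5, the delta receptor subunit Grid1, the metabotropic receptors Grm2, Grm3, Grm4, Grm5, Grm7 and Grm8, and the GABA-A subunits Gabra2, Gabra3, Gabra4, Gabra5, Gabrb1, Gabrb2, Gabrg1 and Gabrg3. Other subunits of these receptors were not analysed here, so every share below is a share among the listed genes.

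RNA came from mCherry-positive cells sorted from the forebrain of wild-type mouse embryos at E16.5. The embryos had received, 48 h before by in utero electroporation at E14.5, a plasmid with mCherry and a hairpin carried in a microRNA backbone. The hairpin targeted Gpc4 (sh-Gpc4), Gpc2 (sh-Gpc2) or was scrambled (sh-NT), with 3 libraries a group, and the series asks what these glypicans do in cortical development. All 3 groups were electroporated and sorted alike, the labels name neither the promoter of the plasmid nor any pooling of embryos, and no label ties a library to an animal or litter, so the p-values cover the spread among these libraries, which may be technical.

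AMPA, NMDA and kainate receptors are tetrameric glutamate-gated cation channels, and their subunit make-up sets calcium permeability, kinetics and magnesium block. Metabotropic glutamate receptors signal through G proteins. GABA-A receptors are pentameric chloride channels, usually of alpha, beta and gamma subunits, and in embryonic cortical neurons, which hold much chloride, GABA often depolarizes. Cortical cells meet both transmitters before most synapses form, during proliferation and radial migration.

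A single codon in the pore loop is a well-known difference in function among the AMPA and kainate subunits. Gria2, Grik1 and Grik2 transcripts can be edited there from a glutamine to an arginine codon (the Q/R site), and in AMPA receptors the edited Gria2 subunit keeps calcium out. The reference sequence of this site is shown because Gria2 was the most abundant of all the subunits below. Each line gives 33 bases of coding sequence, 5′ to 3′ on the gene's strand, from GENCODE M21 transcripts on GRCm38, with the Q/R site codon in capitals.
Gria1 (chr11:57243067-57243099, plus strand, exon 11, codon 600): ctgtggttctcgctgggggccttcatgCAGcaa
Gria2 (chr3:80706908-80706940, minus strand, exon 11, codon 607): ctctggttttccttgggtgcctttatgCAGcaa
Gria3 (chrX:41610238-41610270, plus strand, exon 11, codon 612): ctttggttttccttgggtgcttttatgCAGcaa
Gria4 (chr9:4464134-4464166, minus strand, exon 11, codon 608): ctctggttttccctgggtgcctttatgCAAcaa
Grik1 (chr16:87940539-87940571, minus strand, exon 13, codon 636): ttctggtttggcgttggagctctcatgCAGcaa
Grik2 (chr10:49244326-49244358, minus strand, exon 13, codon 621): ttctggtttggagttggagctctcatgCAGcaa
All 6 genes encode glutamine at this site. Counts per gene hold no base calls, so edited and unedited transcripts, and the flip and flop splice forms of the AMPA subunits, cannot be told apart in the values that follow.

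Libraries held 48045603 to 66538437 counted reads. The hairpin targets were lower on average in their own group but not past the threshold in edgeR: the log2 fold change against sh-NT was -0.53 (SE 0.21, adjusted p = 0.488) for Gpc4 in sh-Gpc4 and -0.54 (SE 0.33, adjusted p = 0.968) for Gpc2 in sh-Gpc2. Gpc2 was lower still under the other hairpin, at -0.76 (SE 0.33, unadjusted p = 0.0465, adjusted p = 0.488 in edgeR) in sh-Gpc4 against sh-NT, with means of 112 CPM in sh-Gpc4, 131 CPM in sh-Gpc2 and 189 CPM in sh-NT, so low Gpc2 did not set sh-Gpc2 apart. The labelled mix of cortical progenitors and neurons was borne out by its markers, with all 10 excitatory neuron genes, 8 of 10 radial glia genes and all 7 intermediate progenitor genes above 1 CPM (read counts scaled to library size with TMM factors). GABAergic interneuron markers were near 0, with 2 of 10 above 1 CPM and a summed level of 5.43 to 6.41 CPM in sh-Gpc4, 7.39 to 10.1 CPM in sh-Gpc2 and 5.57 to 41.5 CPM in sh-NT, where the top value was library 1. Microglia markers were plentiful, all 8 above 1 CPM, at a sum of 836 to 1344 CPM in sh-Gpc4, 399 to 1238 CPM in sh-Gpc2 and 713 to 1082 CPM in sh-NT. Among all the cell type marker lists, only those of mural cells and oligodendrocyte precursors did not overlap in sum between sh-Gpc4 and sh-NT. Mural cells were at 9.28 to 14.49 against 19.5 to 25.7 CPM and precursors at 1.27 to 4.91 against 5.40 to 16.3 CPM. In sh-Gpc2 both sums overlapped sh-NT, at 8.17 to 20.9 CPM for mural cells and 4.64 to 14.46 CPM for precursors. Gaps between sh-Gpc4 and sh-NT were common, at 24% of all genes tested, and these lists were named because they separated. The part of other cell types in the results was not tested, and in bulk samples fewer cells of a type and less RNA per cell cannot be told apart.

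In sh-NT cells the receptor transcripts spanned a wide range of levels with Gria2 far on top. Per kb of exon, so that genes can be set beside each other, Gria2 averaged 37.4 ± 3.09 CPM per kb (SD, n = 3), Gria3 6.12 ± 0.116 and Gria1 4.50 ± 0.368 CPM per kb. The next were the GABA-A subunits Gabra2 and Gabra4 at 2.74 ± 0.295 and 2.69 ± 0.246 CPM per kb and the kainate subunits Grik2 and Grik1 at 2.20 ± 0.208 and 2.12 ± 0.229 CPM per kb. Grik5 (1.33) and Gria4 (1.02) were the remaining genes above 1 CPM per kb. In reads, 8 of the 29 genes averaged at least 10 CPM in sh-NT, 11 lay at 1 to 10 CPM and 10 below 1 CPM.

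Below these, levels ran down in small steps. Gabrb2, Gabra3 and Grin2b lay at 0.581, 0.533 and 0.518 CPM per kb in sh-NT. Grm2, Grin1, Grik4, Grid1, Grm3 and Gabrb1 lay between 0.332 and 0.215 CPM per kb. The order ended with Grm7 (0.164), Grm5 (0.140), Grm8 (0.124), Gabra5 (0.0806), Gabrg1 (0.0618), Gabrg3 (0.0508), Grin2d (0.0376), Grik3 (0.0365), Grin3a (0.0300), Grin2a (0.0282) and Grm4 (0.0232 CPM per kb). Of the 28 pairs of neighbours in this order, 19 had overlapping ranges over the 3 sh-NT libraries. Overlap does not show equal levels, since both genes of a pair are read in the same libraries. Some of these pairs kept their order in every sh-NT library, such as Grm8 above Gabra5 and Grm7 above Grm5, and others did not. The 9 breaks lay between Gria2 and Gria3, Gria3 and Gria1, Gria1 and Gabra2, Gabra4 and Grik2, Grik1 and Grik5, Grik5 and Gria4, Gria4 and Gabrb2, Grin2b and Grm2, and Gabrb1 and Grm7. The order and its breaks hold for the union of exons. With the length of the longest transcript Gria2 stayed on top, but Grm7 (0.229) lay above Gabrb1 (0.216 CPM per kb). Grin1 (0.740) then lay above Grin2b (0.535 CPM per kb). Grik1 (3.90) likewise lay above Grik2 (3.09 CPM per kb), a pair whose ranges overlapped with the union of exons. Gabra2 and Gabra4 were not separated with either length.

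**Figure D1:**
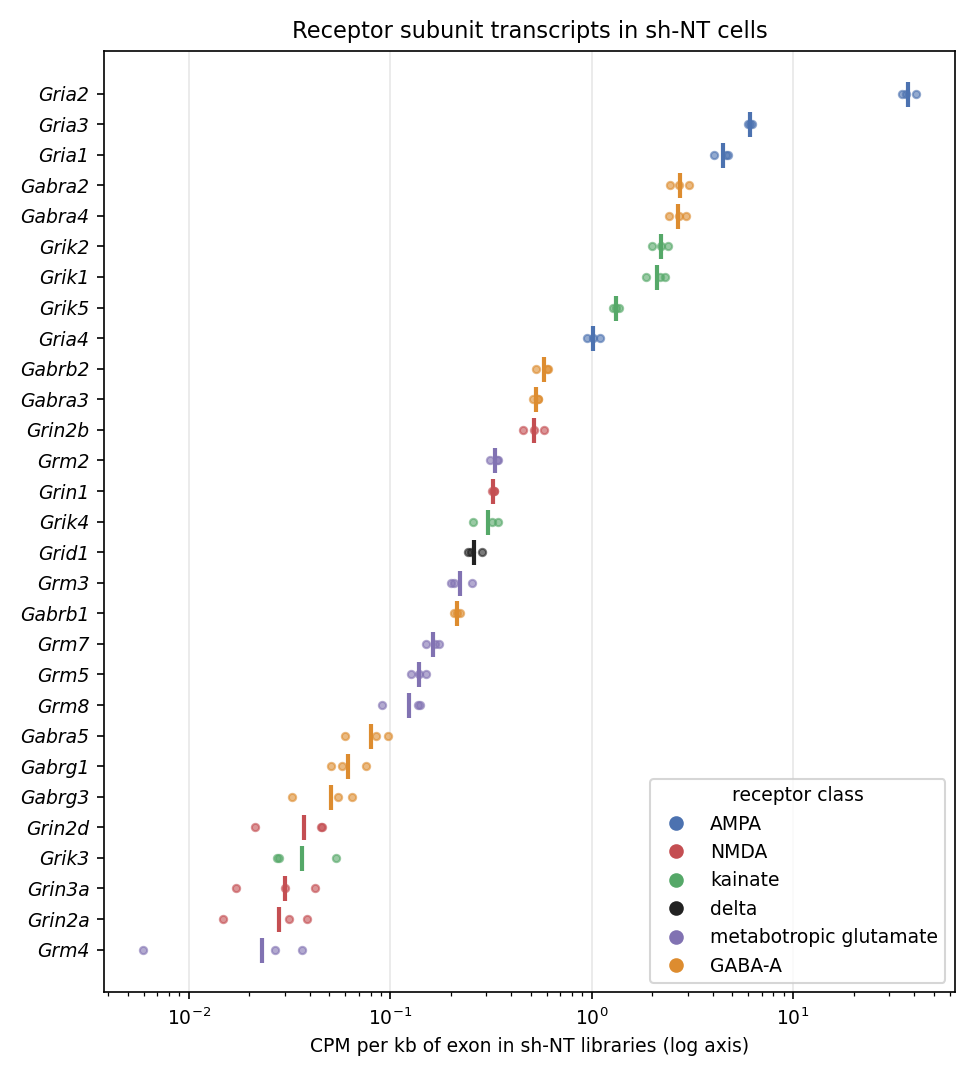
Transcript level of the 29 receptor subunits in sh-NT cells, as TMM-scaled CPM per kb of exon on a log axis, coloured by receptor class. Points are the 3 sh-NT libraries and vertical ticks their means. Gria2 stands apart at 37.4 CPM per kb, and the NMDA subunits other than Grin2b and Grin1 lie in the lowest group of genes.

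The AMPA receptor subunits were made up mostly of Gria2, which sets the calcium permeability of the channel. Gria2 (ENSMUSG00000033981, chromosome 3, 80681450 to 80802835, minus strand) was at 686, 808 and 725 CPM in sh-Gpc4 libraries 1, 3 and 4, at 626, 508 and 746 CPM in sh-Gpc2 libraries 1, 2 and 4, and at 635, 543 and 567 CPM in sh-NT libraries 1, 2 and 4. All sh-Gpc4 libraries lay above all sh-NT libraries, while the sh-Gpc2 libraries spanned the sh-NT range. In sh-Gpc4 against sh-NT the fitted log2 difference was 0.35 (SE 0.14, with a 95% interval of 0.04 to 0.66), with an unadjusted p of 0.0319 and an adjusted p of 0.488 in edgeR, so it did not pass. Leaving out each library gave 0.29 to 0.41, with an unadjusted p of up to 0.105 (without sh-Gpc4 library 3). It was 0.11 in sh-Gpc2 against sh-NT (SE 0.14) and 0.24 in sh-Gpc4 against sh-Gpc2 (SE 0.14, 95% interval -0.07 to 0.55). Each of these rested on single sh-Gpc2 libraries: they were 0.24 and 0.11 without sh-Gpc2 library 2, and -0.04 and 0.38 without sh-Gpc2 library 4. Among the AMPA subunits of a library, Gria2 took 79.0, 80.8 and 79.5% of the per-length sum in sh-Gpc4, 77.0, 74.5 and 80.9% in sh-Gpc2 and 77.4, 76.0 and 75.3% in sh-NT.

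Gria3, the next AMPA subunit, was at 62.0, 69.0 and 68.1 CPM in sh-Gpc4, at 63.8, 57.3 and 72.6 CPM in sh-Gpc2 and at 60.4, 59.2 and 61.5 CPM in sh-NT. The sh-Gpc4 and sh-NT libraries were separated by a narrow gap, with a log2 fold change of 0.14 (SE 0.10). Gria1, the subunit best known for its recruitment in synaptic plasticity, was at 25.5, 25.6 and 23.8 CPM in sh-Gpc4, at 26.2, 25.6 and 17.9 CPM in sh-Gpc2 and at 28.8, 24.6 and 28.1 CPM in sh-NT. Its groups overlapped (log2 fold change against sh-NT -0.12, SE 0.15, in sh-Gpc4 and -0.23, SE 0.15, in sh-Gpc2), and its lowest value, in sh-Gpc2 library 4, came from the library with the highest Gria2 of that group. As a share of the AMPA sum, Gria1 was 7.56, 6.59 and 6.73% in sh-Gpc4, below the 9.03, 8.88 and 9.60% of sh-NT, and 8.28, 9.69 and 4.99% in sh-Gpc2. Gria4 held 1.68 to 2.51% over the 9 libraries. The AMPA sum itself was 59.6 ± 4.32 CPM per kb in sh-Gpc4, 51.8 ± 7.78 in sh-Gpc2 and 49.1 ± 3.45 in sh-NT (SD, n = 3 each).

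NMDA receptor transcripts were Grin2b and Grin1, with little of the rest. Grin1 encodes the subunit that every NMDA receptor needs, and Grin2b the glutamate-binding subunit that prevails before birth, while Grin2a takes over after it. Grin2b (ENSMUSG00000030209, chromosome 6, 135713233 to 136173511, minus strand) was at 13.5, 12.5 and 14.0 CPM in sh-Gpc4, at 15.0, 13.1 and 12.6 CPM in sh-Gpc2 and at 14.4, 12.9 and 11.4 CPM in sh-NT. These ranges overlapped throughout, and the log2 fold changes against sh-NT were 0.05 (SE 0.13, 95% interval -0.24 to 0.34) in sh-Gpc4 and 0.08 (SE 0.13, 95% interval -0.21 to 0.37) in sh-Gpc2. Per kb, Grin2b exceeded Grin2a 13.4-fold to 31.0-fold over the 9 libraries. Grin2a, Grin2d and Grin3a each stayed below 1 CPM in every library.

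Grin1 (ENSMUSG00000026959, chromosome 2, 25291181 to 25319187, minus strand) was at 3.03, 1.74 and 2.12 CPM in sh-Gpc4, at 3.37, 2.11 and 1.67 CPM in sh-Gpc2 and at 3.12, 3.17 and 3.20 CPM in sh-NT. Its sh-NT values were nearly identical, while each hairpin group held 1 library near that level and a pair well below it. All sh-Gpc4 libraries were below all sh-NT libraries, and the log2 fold change was -0.47 (SE 0.28, 95% interval from -1.09 to 0.16) and an adjusted p of 0.493 in edgeR. The value was -0.29 without sh-Gpc4 library 3 and -0.71 without sh-Gpc4 library 1. In sh-Gpc2 against sh-NT it was -0.41 (SE 0.28), with -0.74 without sh-Gpc2 library 1 and -0.21 without sh-Gpc2 library 4. The ratio of Grin2b to Grin1 depends on the gene length used: Grin2b was the higher by 0.67 on the log2 scale in sh-NT with the union of exons and the lower at -0.47 with the longest transcript. Grin1os and Gm26653, antisense to Grin1 and Grin2b, averaged 1.08 and 4.38 CPM, and their reads cannot be told apart where exons overlap.

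Kainate receptor transcripts were shared between Grik2, Grik1 and Grik5. Grik1 and Grik2 form channels on their own, whereas Grik4 and Grik5 are high-affinity subunits that need such a partner. Grik2 was at 30.1, 29.6 and 33.8 CPM in sh-Gpc4, at 27.2, 27.3 and 27.6 CPM in sh-Gpc2 and at 29.3, 31.8 and 26.3 CPM in sh-NT. The sh-Gpc4 libraries lay above the tight sh-Gpc2 libraries (log2 fold change 0.19, SE 0.11, 95% interval -0.05 to 0.42), and both overlapped sh-NT. Grik1 was at 14.0, 10.3 and 12.7 CPM in sh-Gpc4, at 13.7, 18.6 and 13.0 CPM in sh-Gpc2 and at 15.5, 14.7 and 12.5 CPM in sh-NT, with overlapping groups. Of the kainate sum per length, Grik2 took 40.9%, 34.5% and 36.7% on average in sh-Gpc4, sh-Gpc2 and sh-NT, and Grik1 31.6%, 37.2% and 35.4% in the same order. In sh-NT the difference between Grik2 and Grik1 was 0.05 on the log2 scale, and -0.33 with the length of the longest transcript. Grik5 took 19.5 to 26.9% in single libraries.

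Grik4 (ENSMUSG00000032017, chromosome 9, 42518135 to 42944493, minus strand), at 1.54, 1.05 and 1.04 CPM in sh-Gpc4, 1.91, 1.63 and 1.10 CPM in sh-Gpc2 and 1.91, 2.06 and 1.54 CPM in sh-NT, had the second member value with an unadjusted p under 0.05. The highest sh-Gpc4 library and the lowest sh-NT library were almost level. Its log2 fold change in sh-Gpc4 against sh-NT was -0.61 (SE 0.25, 95% interval -1.17 to -0.05), with an unadjusted p of 0.0363 and an adjusted p of 0.488 in edgeR. It ran from -0.81 to -0.51 as each library was left out, with an unadjusted p of up to 0.113 (without sh-Gpc4 library 4). Grik3 was scarce, at 0.220, 0.210 and 0.309 CPM in sh-Gpc4, 0.335, 0.468 and 0.346 CPM in sh-Gpc2 and 0.482, 0.253 and 0.247 CPM in sh-NT. Its sh-Gpc4 libraries lay below the sh-Gpc2 libraries (log2 fold change -0.63, SE 0.33, 95% interval -1.38 to 0.12), while both groups overlapped sh-NT. Leaving out each library moved it between -0.84 and -0.45. Grid1, a delta receptor subunit that binds cerebellins rather than passing glutamate current, was at 1.60, 1.38 and 1.38 CPM in sh-Gpc4, 1.06, 1.37 and 1.36 CPM in sh-Gpc2 and 1.45, 1.50 and 1.71 CPM in sh-NT. The sh-Gpc2 libraries were the lowest, with a log2 difference of -0.30 against sh-NT (SE 0.17, 95% interval -0.69 to 0.09) that was -0.18 without sh-Gpc2 library 1.

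**Figure D2:**
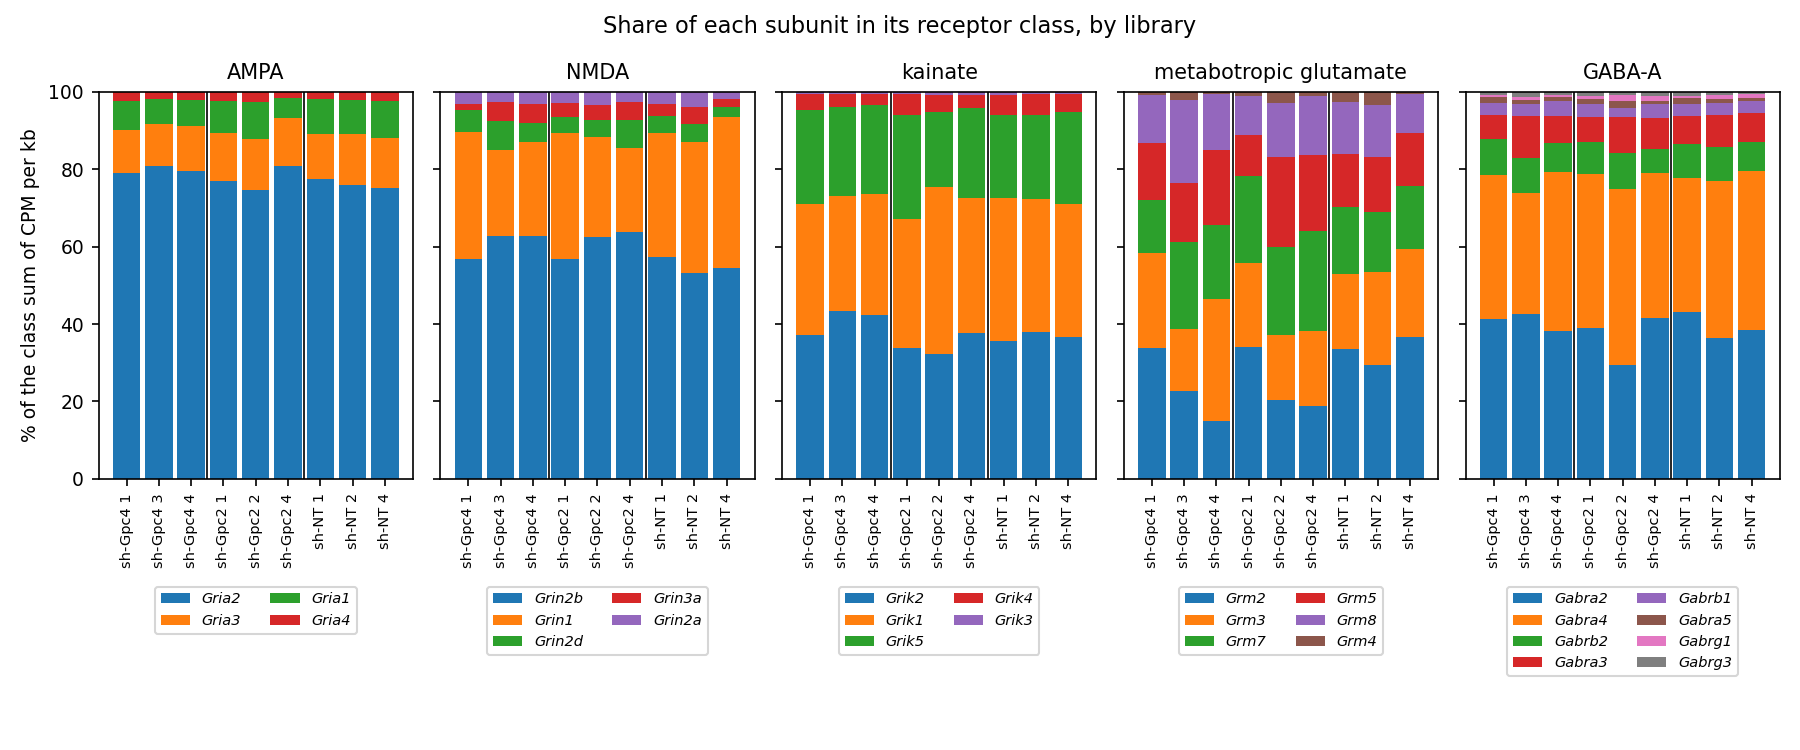
Share of each subunit in the per-length sum of its receptor class (%, y axis) in each of the 9 libraries (x axis), for AMPA, NMDA, kainate, metabotropic glutamate and GABA-A receptors; vertical lines part the groups sh-Gpc4, sh-Gpc2 and sh-NT. Gria2 fills 74.5 to 80.9% of the AMPA bars, while no subunit fills as much of the kainate, metabotropic or GABA-A bars.

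The metabotropic receptors were all low, between 0.0232 (Grm4) and 0.332 (Grm2) CPM per kb on average in sh-NT. Grm7, a presynaptic receptor of group III that inhibits adenylyl cyclase and has low affinity for glutamate, was at 0.739, 0.809 and 0.971 CPM in sh-Gpc4, 1.48, 1.39 and 1.34 CPM in sh-Gpc2 and 1.03, 0.978 and 0.884 CPM in sh-NT. Every sh-Gpc2 library lay above every library of the other groups, and sh-Gpc4 overlapped sh-NT. The log2 fold change of Grm7 (ENSMUSG00000056755, chromosome 6, 110645581 to 111567230, plus strand) was 0.54 in sh-Gpc2 against sh-NT (SE 0.17, 95% interval 0.16 to 0.93), with an unadjusted p of 0.0108 and an adjusted p of 0.968 in edgeR. In sh-Gpc4 against sh-Gpc2 it was -0.74 (SE 0.17, 95% interval -1.12 to -0.35), with an unadjusted p of 0.0018 and an adjusted p of 0.966 in edgeR. Over the 16 alternatives that gave Grm7 a value (it lies below the filter of 5 CPM), these ran from 0.48 to 0.59 and from -0.86 to -0.64, leaving out each library included. An antisense gene, Gm20387, overlaps Grm7 exons at 0.391 CPM.

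Grm2 and Grm3 are the group II receptors, which also lower cyclic AMP. Grm2 was at 1.54, 0.674 and 0.633 CPM in sh-Gpc4, 1.87, 1.03 and 0.813 CPM in sh-Gpc2 and 1.67, 1.53 and 1.66 CPM in sh-NT. As for Grin1, sh-NT was tight and library 1 of each hairpin group was near its level, with the other libraries lower. The log2 fold change in sh-Gpc4 against sh-NT was -0.79 (SE 0.39, 95% interval -1.66 to 0.07; unadjusted p = 0.0685, adjusted p = 0.488 in edgeR), the lowest of any member in that comparison, and -1.31, -0.60 and -0.57 without sh-Gpc4 library 1, 3 and 4. Grm3 was at 0.699, 0.300 and 0.824 CPM in sh-Gpc4, 0.741, 0.532 and 0.529 CPM in sh-Gpc2 and 0.611, 0.776 and 0.636 CPM in sh-NT, with overlapping groups. Grm5, the group I receptor coupled to phospholipase C, averaged 1.34 ± 0.377 CPM in sh-Gpc4, 1.82 ± 0.634 CPM in sh-Gpc2 and 1.43 ± 0.122 CPM in sh-NT. Grm8 averaged 1.23, 1.30 and 1.22 CPM in sh-Gpc4, sh-Gpc2 and sh-NT. Grm4 had 2 to 13 reads per library and was the only member not tested.

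GABA-A transcripts were led by the alpha subunits Gabra2 and Gabra4, which shape GABA affinity and kinetics. Gabra2 was at 22.7, 21.7 and 21.8 CPM in sh-Gpc4, 20.5, 12.8 and 23.6 CPM in sh-Gpc2 and 23.2, 18.7 and 20.9 CPM in sh-NT. Gabra4 was at 16.4, 12.7 and 18.7 CPM in sh-Gpc4, 16.8, 15.8 and 16.9 CPM in sh-Gpc2 and 14.8, 16.49 and 17.8 CPM in sh-NT. For both genes all groups overlapped. The log2 fold change against sh-NT was 0.08 (SE 0.20) in sh-Gpc4 and -0.14 (SE 0.20) in sh-Gpc2 for Gabra2, and -0.04 (SE 0.15) and 0.01 (SE 0.15) for Gabra4. Together they made up most of the class, Gabra2 with 40.6%, 36.6% and 39.4% of the per-length sum and Gabra4 with 36.6%, 41.0% and 38.7% in sh-Gpc4, sh-Gpc2 and sh-NT. Which was the higher in sh-NT depended on the length: the log2 ratio of Gabra2 to Gabra4 was 0.03 with the union of exons, -0.16 with the longest transcript and -0.12 without sh-NT library 1.

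Of the other GABA-A genes, Gabrb2 and Gabrb1 encode beta subunits, which complete the GABA binding site. Gabrb2 averaged 3.92 ± 0.247 CPM in sh-Gpc4, 3.30 ± 0.302 CPM in sh-Gpc2 and 3.69 ± 0.290 CPM in sh-NT, and its sh-Gpc4 libraries all lay above its sh-Gpc2 libraries (log2 fold change 0.25, SE 0.14). Gabrg1, a gamma subunit, was at 0.259, 0.495 and 0.309 CPM in sh-Gpc4, 0.335, 0.726 and 0.874 CPM in sh-Gpc2 and 0.402, 0.455 and 0.601 CPM in sh-NT. Its groups overlapped, and its log2 fold change of -0.84 in sh-Gpc4 against sh-Gpc2 (SE 0.38, 95% interval -1.69 to 0.01; unadjusted p = 0.0531, adjusted p = 0.966 in edgeR) was the lowest of any member in any comparison. It was -0.57 without sh-Gpc2 library 4 and -1.16 without sh-Gpc4 library 3. Gabra3, Gabra5, Gabrb1 and Gabrg3 had overlapping groups in every comparison.

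Neighbouring GABA-A genes did not share a level. Gabrg1, Gabra2, Gabra4 and Gabrb1 lie within 1.40 Mb of chromosome 5 (70751047 to 72149037 on GRCm38) and averaged 0.0618, 2.74, 2.69 and 0.215 CPM per kb in sh-NT. Gabra4 and Gabrb1 start head to head on opposite strands and overlap at their first bases. Gabrg3 and Gabra5, within 0.794 Mb of chromosome 7 (56716465 to 57510059), averaged 0.0508 and 0.0806 CPM per kb.

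**Figure D3:**
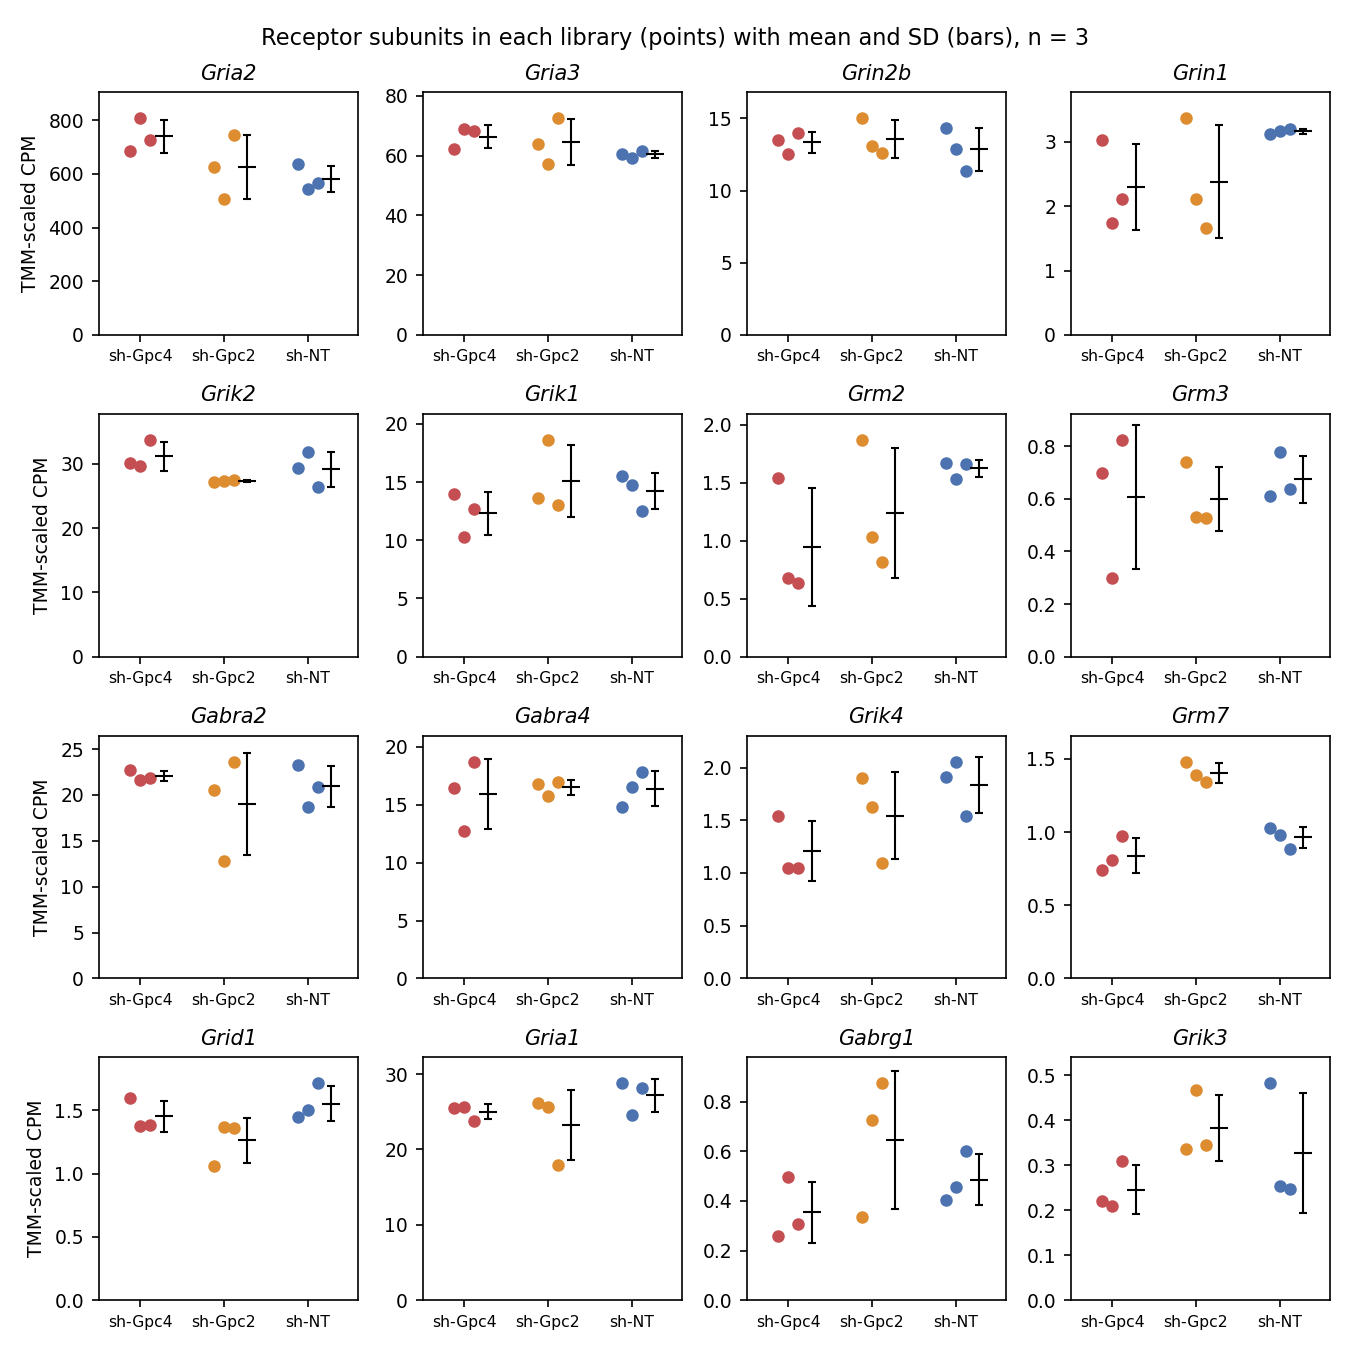
TMM-scaled CPM (y axis, from 0) of 16 receptor subunits in each library, by group (sh-Gpc4, sh-Gpc2, sh-NT). Points are libraries, and bars the mean with its SD (n = 3). Grin1 and Grm2 are tight in sh-NT (3.12 to 3.20 and 1.53 to 1.67 CPM) and spread in both hairpin groups, and Grm7 is highest in the 3 sh-Gpc2 libraries.

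Across the family, no member passed an adjusted p of 0.05 in edgeR in any comparison. In sh-Gpc4 against sh-NT, 0 of 28 members tested were called, as were 0% of all 27773 genes tested. At an unadjusted p under 0.05 there were 2 members, Gria2 and Grik4, against 9.57% of all genes. Positive log2 fold changes were found for 15 members and negative ones for 13 (47.2% of all genes were negative), with a median of 0.02, which was also the median of all genes. The groups did not overlap for 5 members, Gria2, Gria3 and Gria4 (higher in sh-Gpc4) and Grin1 and Grik4 (lower in sh-Gpc4), a share of 17.9% against 24% of all genes tested. For each, the exact permutation p (two-sided) was 0.1, and no smaller p can be reached with 3 libraries against 3. DESeq2 called 39 genes in this comparison, 0.135% of those it gave an adjusted p, and limma voom 0; none was a receptor subunit.

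In sh-Gpc2 against sh-NT, edgeR again called 0 members and 0% of all genes. Grm7 was the single member with an unadjusted p under 0.05, a share close to the 2.56% of all genes. Of the 28 members 17 were positive and 11 negative (49.3% of all genes were negative), with a median of 0.06 beside 0.00 for all genes. Grid1 and Grm7 did not overlap between the groups, 7.14% of members against 7.7% of all genes. Between the hairpins, sh-Gpc4 against sh-Gpc2, 0 members and 0% of all genes were called, 1 member, Grm7, and 2.89% of all genes had an unadjusted p under 0.05, and 13 members were positive and 15 negative (50.5% of all genes were negative) with a median of -0.02. Here 5 members did not overlap, Grik2, Grik3, Grid1, Grm7 and Gabrb2, which is 17.9% of members against 5.5% of all genes. This share includes near ties, as the share of all genes, counted by the same rule, may too. The lowest sh-Gpc4 value of Grid1 was 1.379 CPM against a highest sh-Gpc2 value of 1.371 CPM. For Grik3, the highest sh-Gpc4 value was 0.309 CPM against a lowest sh-Gpc2 value of 0.335 CPM. Gabrb2 had a lowest sh-Gpc4 value of 3.68 CPM against a highest sh-Gpc2 value of 3.56 CPM, and Grik2 29.6 against 27.6 CPM. Grm7 was further apart, with 0.971 CPM at most in sh-Gpc4 and 1.34 CPM at least in sh-Gpc2. The comparisons with sh-NT share the sh-NT libraries, and each shares a hairpin group with the third.

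The intervals show which differences these libraries leave room for. All 28 log2 fold changes lay within 1 of 0 in each comparison, and the 95% intervals themselves lay wholly within 1 of 0 for 20 members when sh-Gpc4 was set against sh-NT, for 22 with sh-Gpc2 against sh-NT and for 23 between the hairpin groups. For Gria3 the interval in sh-Gpc4 against sh-NT was -0.09 to 0.37 and for Grik2 -0.14 to 0.33, while Grin2d, at 0.141 to 0.390 CPM over the libraries, had one of -0.27 to 1.20. Missing the threshold does not show that a subunit was at the same level.

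**Figure D4:**
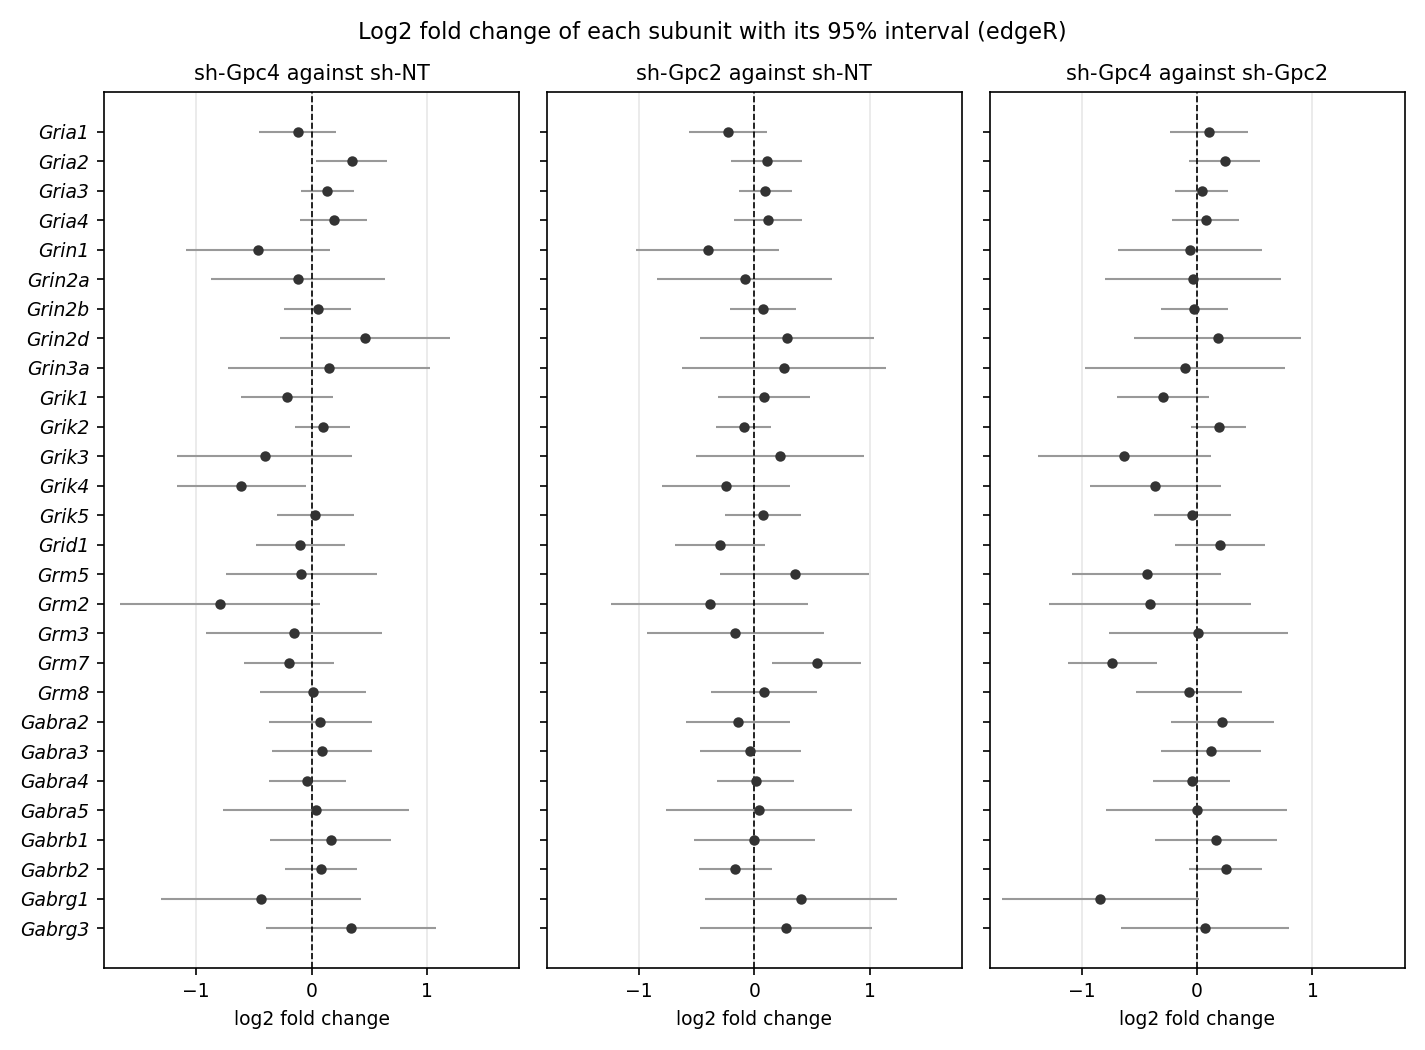
Log2 fold change (x axis) of the 28 tested receptor subunits (y axis) in 3 panels, each hairpin group against sh-NT and then sh-Gpc4 against sh-Gpc2. Points are edgeR estimates and lines their 95% intervals; the dashed line is 0. Grm7 lies clear of 0 in both comparisons with sh-Gpc2, and Gria2 and Grik4 in sh-Gpc4 against sh-NT, none of them past the adjusted threshold.

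Some libraries stood apart over the whole transcriptome. The first principal component of 12033 genes held 71.5% of the variance, with sh-Gpc4 libraries 1, 3 and 4 at -0.074, 0.619 and 0.214. The sh-Gpc2 libraries 1, 2 and 4 lay at -0.2343, -0.2565 and 0.488, and the sh-NT libraries at -0.346 to -0.175. All sh-Gpc4 libraries were thus above all sh-NT libraries, so position on this component and group cannot be told apart in that comparison. Sh-Gpc4 libraries 3 and 4 and sh-Gpc2 library 4, the 3 with positive values, had the highest Gria2 (808, 725 and 746 CPM). They also had among the lowest Grin1 (1.74, 2.12 and 1.67 CPM) and Grm2 (0.674, 0.633 and 0.813 CPM). Without sh-Gpc4 library 3 and sh-Gpc2 library 4 together, the log2 fold change in sh-Gpc4 against sh-NT was 0.27 for Gria2, -0.31 for Grin1, -0.61 for Grm2 and -0.53 for Grik4. For Gria2 in sh-Gpc2 against sh-NT it was -0.05. Grm7 held at 0.56 in sh-Gpc2 against sh-NT and at -0.73 in sh-Gpc4 against sh-Gpc2.

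Genes that act around these receptors were followed in 5 lists, and none of their genes was called by edgeR in any comparison. As background for their sign counts, 47.2% of all genes tested were negative in sh-Gpc4 against sh-NT (median 0.02). The shares were 49.3% in sh-Gpc2 against sh-NT (median 0.003) and 50.5% between the hairpin groups (median -0.002). Both comparisons with sh-NT use the same sh-NT libraries, so their counts are not independent. Auxiliary proteins of AMPA and kainate receptors, which set trafficking and gating, were negative for 15 of 19 in sh-Gpc4 against sh-NT (median -0.27), for 15 of 19 in sh-Gpc2 against sh-NT (median -0.19) and for 11 of 19 in sh-Gpc4 against sh-Gpc2 (median -0.07). Olfm1, a secreted olfactomedin found in AMPA receptor complexes, was at 49.8, 47.7 and 59.9 CPM in sh-Gpc4, 88.1, 74.9 and 53.7 CPM in sh-Gpc2 and 77.7, 83.8 and 90.1 CPM in sh-NT. Its sh-Gpc4 libraries lay below all sh-NT libraries (log2 fold change -0.68, SE 0.17, adjusted p = 0.488 in edgeR). The AMPA regulatory protein Cacng5 averaged 21.9 ± 7.78 CPM in sh-Gpc4, 31.7 ± 9.18 CPM in sh-Gpc2 and 35.3 ± 6.49 CPM in sh-NT. The kainate receptor partner Neto2 averaged 23.8, 21.7 and 22.2 CPM in sh-Gpc4, sh-Gpc2 and sh-NT.

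Postsynaptic scaffold genes were negative for 13 of 20 in sh-Gpc4 against sh-NT (median -0.08) and for 13 of 20 in sh-Gpc2 against sh-NT (median -0.06). Dlgap4, a partner of PSD-95, averaged 225 ± 16.7 CPM in sh-Gpc4, 221 ± 11.9 CPM in sh-Gpc2 and 230 ± 11.0 CPM in sh-NT. Gabarap, which binds GABA-A gamma subunits, averaged 191 ± 0.591, 192 ± 10.7 and 173 ± 6.46 CPM in the same groups. Glutamate transport genes had 5 positive and 4 negative members in sh-Gpc4 against sh-NT (median 0.09) and 6 and 3 in sh-Gpc2 against sh-NT (median 0.04). The vesicular glutamate transporter Slc17a6 averaged 196 ± 13.9 CPM in sh-Gpc4, 173 ± 13.8 CPM in sh-Gpc2 and 171 ± 24.4 CPM in sh-NT.

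Genes of GABA synthesis and transport were low apart from Abat, which breaks GABA down, and all 5 tested were negative in each comparison. Of all genes tested, 47.2% were negative in sh-Gpc4 against sh-NT, 49.3% in sh-Gpc2 against sh-NT and 50.5% between the hairpin groups. The list medians in this order were -0.87, -0.39 and -0.49. Each was the value of Gad2. In the comparisons with sh-NT, though not between the hairpin groups, it rested on an sh-NT mean raised by library 1, as given below. Abat was at 50.9, 26.7 and 41.8 CPM in sh-Gpc4, 45.8, 51.2 and 32.6 CPM in sh-Gpc2 and 53.1, 55.1 and 55.2 CPM in sh-NT. Gad2, a GABA-synthesizing enzyme, averaged 2.93 ± 0.191 CPM in sh-Gpc4, 4.11 ± 0.363 CPM in sh-Gpc2 and 5.37 ± 3.55 CPM in sh-NT, where library 1, with the interneuron marker sum of 41.5 CPM, held 9.29 CPM. Of the cation-chloride cotransporters and GABA-B receptors, 4 of 6 were negative in sh-Gpc4 against sh-NT (median -0.25) and 5 of 6 in sh-Gpc2 against sh-NT (median -0.11). Slc12a7, a chloride exporter, was at 68.2, 25.2 and 46.2 CPM in sh-Gpc4, 75.8, 92.2 and 32.1 CPM in sh-Gpc2 and 76.7, 91.4 and 74.7 CPM in sh-NT. Its lowest values were in sh-Gpc4 library 3 and sh-Gpc2 library 4, the libraries highest on the first principal component.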

How the data were processed

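Per the labels' protocols, a small-sample kit was used for RNA and a low-input kit for the libraries. The authors deposited raw read counts per gene; per the submitters' processing notes they counted with featureCounts of Subread with builds GRCm38 and mm10 named. The aligner, annotation release, versions and strand setting were not given in the sources used here. Reads of overlapping genes on opposite strands therefore cannot be separated, and exons of 14 members overlap another gene.

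Symbols, coordinates and exon lengths came from GENCODE M21, which matched 51486 of 78275 IDs (65.8%), with 96.8 to 97.0% of reads, and all 29 members. Column names give the group but not the titled replicate, so libraries carry the column numbers. Counts of libraries of a group differed well beyond sampling noise (chi-square over its degrees of freedom, 7.65 to 81.7).

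In R 4.3.3, edgeR 4.0.16 (quasi-likelihood test, TMM, default filter, 9 libraries, 3 contrasts) tested 27773 genes, with Benjamini-Hochberg adjustment over all of them and a threshold of 0.05. CPM per kb divides TMM-scaled CPM by the union of exons. Intervals come from the test's standard errors. The steps were checked on simulated data with 200 changed genes, all well counted, and the same spread set for every gene. That check does not show what could be detected for members with few reads in these libraries. Alternatives were DESeq2 1.42.0, its size factors, limma 3.58.1 voom with sample weights, other filters, fits of only the groups compared, other lengths, a block by column number and leaving out libraries; leaving out 2 libraries together was added after seeing the data. Values in every library are given for the top 2 members of each class by per-length level in sh-NT and the 4 with the smallest p in each contrast, and up to 4 genes with the highest sh-NT CPM represent each related list. The members and lists were chosen with earlier results of these data known.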

Additional observations from a re-analysis of the deposited data

How the results depend on the processing

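No receptor subunit was called under any of the 17 alternatives of the fit, and the lowest adjusted p of a named member, 0.0531, came from limma voom for Grik4 and Grm2 in sh-Gpc4 against sh-NT. This was also the smallest adjusted p of any gene in that fit, where 9011 of 27773 genes had an unadjusted p under 0.05. It therefore does not set these subunits apart. Over all genes, DESeq2 called 39 in that comparison, and every other alternative called 0 in each comparison. When genes needed over 5 CPM in 3 libraries, 10 members were left, of which 3 were negative in sh-Gpc4 against sh-NT, 3 when sh-Gpc2 was set against sh-NT and 4 between the hairpin groups. Leaving out each library gave 12 to 18, 11 to 17 and 10 to 18 negative members in the same order. Whether the column numbers pair libraries was not tested. Deviations of same-numbered libraries correlated from -0.0913 to 0.677, with 0.478 and 0.463 for numbers 2 and 4 of sh-Gpc2 and sh-NT. Under a replicate block by column number 11, 12 and 12 members were negative and 0 genes were called. With that block Gria2 was at 0.18 (unadjusted p = 0.215) in sh-Gpc4 against sh-NT and at 0.09 in sh-Gpc4 against sh-Gpc2. Of 48 log2 fold changes of 16 named members, 30 kept their sign under every alternative that gave a value.

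Levels between genes depended more on length. In sh-NT the log2 ratio of the leading subunits was 2.61 for Gria2 over Gria3 with the union of exons, 2.27 with the longest transcript and 3.27 with no division by length. It was -0.47 and 2.03 for Grin2b over Grin1, -0.33 and 1.03 for Grik2 over Grik1, and -0.16 and 0.35 for Gabra2 over Gabra4 with these lengths, and 1.27 for Grm2 over Grm3 with no division. Without 1 sh-NT library, Gabra2 over Gabra4 ran from -0.12 to 0.10. With no division by length the share in sh-NT was 86.1% for Gria2, 75.0% for Grin2b, 55.6% for Grik2, 27.0% for Grm2 and 44.1% for Gabra2. Counting error is small for Gria2 but not for members with few reads, such as Grm4.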
